A study of Mus musculus with 24 samples.

Results

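Nppa, Nppb, Ankrd1, Csrp3 and Xirp1 were followed in RNA from sorted mouse cardiomyocyte (CM) nuclei during the first 2 postnatal weeks. The 5 genes were chosen by name, as natriuretic peptides and fetal or stress-responsive CM genes, out of the 56923 gene identifiers counted in every library. The question was how these genes behave at P1, P7 and P14, the days on which CMs grow and become polyploid, and whether loss of Casp2 from CMs changes them. Caspase-2, the protein that Casp2 encodes, is a protease activated by the PIDDosome, which limits ploidy.

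Libraries came from ventricles of C57BL/6N mice of either sex at P1, P7 or P14. Control mice were XMLC2- Casp2 fl/fl and Casp2-depleted mice were XMLC2+ Casp2 fl/fl. Both genotypes therefore carried the floxed Casp2 alleles, and XMLC2-Cre, a driver active in heart muscle cells, was the only difference given between them. Mice carrying XMLC2-Cre without floxed alleles were not analysed here, so an action of Cre itself and loss of Casp2 cannot be told apart. Each library was a pool of nuclei from 15 hearts at P1, 6 at P7 and 2 at P14, so that the replicates are pools and not single animals. P-values describe the spread between such pools. In the main fit this was the gene's own spread for Ankrd1. For Csrp3, Nppa and Nppb it was the spread that the fit assigned from all genes. Nuclei were sorted by staining of the centriolar satellite protein PCM1, which marks the nuclear envelope of CMs.

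Of the 24 libraries (4 in each group), 21 were kept, 3 for P1 control, P14 control and P14 Casp2-depleted and 4 for each other group. Reads assigned to genes numbered from 891817 to 2924097 (median 1452114) in these. The study set aside replicate 1 of the P1 controls, replicate 3 of the P14 controls and replicate 1 of the P14 Casp2-depleted libraries for their quality, and their values are given apart. The left-out P14 libraries had reads on 2049 (control) and 4285 (Casp2-depleted) genes, against 7628 to 17770 in the kept libraries, while the left-out P1 control had reads on 11707 genes and 9.21% of its uniquely placed reads on no gene. In the kept libraries 63.7% to 76.1% of uniquely placed reads fell on no gene at P14, 34.3% to 64.3% at P7 and 36.8% to 73.9% at P1, so that P14 lay mostly above P7 and overlapped P1. Casp2 itself had 9 reads in the P7 controls, 8 in the P7 Casp2-depleted libraries and 0 at P1 and P14, too few to check the genotype labels. The ventricular CM markers were read throughout, with Myh6, Tnnt2, Ttn and 7 others summing to between 9321 and 142953 CPM in a library (CPM, reads scaled to a common library size with TMM factors), whereas the 8 fibroblast markers summed to between 62.3 and 328.3 CPM. Ventricular is the name of that CM list here and does not mean that its genes are confined to ventricles. Endothelial and endocardial markers summed to between 49.5 and 754.6 CPM and mural cell markers to between 60.8 and 731.6 CPM.

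Nppa and Nppb encode atrial and B-type natriuretic peptide, hormones that are cut from larger precursors and act through guanylyl cyclase receptors to promote salt excretion and to relax vessels. Fetal ventricles make both, the level falls after birth, and stretched or failing ventricles make them again. Ankrd1 (also called CARP) is a nuclear and sarcomeric ankyrin repeat protein that binds titin, Csrp3 (muscle LIM protein) is a Z-disc protein linked to the sensing of stretch, and Xirp1 is an actin-binding repeat protein of the intercalated disc. Together they are widely used as markers of a CM under load.

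The promoters of the 3 members with the most reads are shown, since several of the factors listed further on as their known regulators bind GATA or MEF2 sites and were measured in the same libraries. Each runs from 250 bases before to 50 bases after the annotated start (GRCm39, gene strand, 5′ to 3′), with matches to the searched motifs in capitals. The motifs were the GATA site (spelled AGATAA and its variants TGATAA as well as AGATAG and further TGATAG), the TEAD site (GGAATG), the AP-1 site (TGANTCA), the CArG box, the MEF2 box and TATAAA, searched on both strands.
Ankrd1, chr19:36097457-36097756, minus strand: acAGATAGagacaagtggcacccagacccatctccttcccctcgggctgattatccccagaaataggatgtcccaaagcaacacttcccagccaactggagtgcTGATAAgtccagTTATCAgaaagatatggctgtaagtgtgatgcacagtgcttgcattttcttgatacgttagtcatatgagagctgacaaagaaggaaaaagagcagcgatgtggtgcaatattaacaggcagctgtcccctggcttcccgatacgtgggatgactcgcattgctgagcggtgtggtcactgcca
Csrp3, chr7:48497852-48498151, minus strand: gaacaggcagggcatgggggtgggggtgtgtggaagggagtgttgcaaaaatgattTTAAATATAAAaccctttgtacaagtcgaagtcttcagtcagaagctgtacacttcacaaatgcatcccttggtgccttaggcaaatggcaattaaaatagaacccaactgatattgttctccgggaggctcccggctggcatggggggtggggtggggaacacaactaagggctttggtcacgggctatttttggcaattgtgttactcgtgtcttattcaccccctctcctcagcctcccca
Nppa, chr4:148084841-148085140, plus strand: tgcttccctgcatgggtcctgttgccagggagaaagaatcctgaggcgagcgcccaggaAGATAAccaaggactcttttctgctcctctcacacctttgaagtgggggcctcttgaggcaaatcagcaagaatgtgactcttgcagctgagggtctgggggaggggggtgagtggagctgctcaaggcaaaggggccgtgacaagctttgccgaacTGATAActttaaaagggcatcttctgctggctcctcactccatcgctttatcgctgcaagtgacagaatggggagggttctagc

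The Ankrd1 window held 3 GATA matches, beginning at -248, -146 and -134 from the start. At least 3 matches were found in 352 of 21770 mouse promoters of the same length (1.62%), and at least 1 in 28.8%. The Csrp3 window held a MEF2 box from -194 to -185, a motif present in 2.96% of promoters, which overlapped a TATAAA found in 13.2%. The Nppa window held 2 GATA matches, at -191 and -34. The TEAD site, the AP-1 site and the CArG box, present in 14%, 7.14% and 1.54% of promoters, were not found in these 3 windows. These are letter matches in these windows and say nothing about occupancy.

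Ankrd1 was by far the most abundantly read member, with 67711 reads in the kept libraries, and it was the only member whose fall from P7 to P14 was called by edgeR in both genotypes. Ankrd1 (ENSMUSG00000024803) lies on chr19:36089352-36097506, minus strand, and overlaps the lncRNA gene Gm56671 on the other strand, which had 0 to 33 reads in a library. Values are CPM after TMM scaling, as above. In P1 controls, replicates 2, 3 and 4 gave 222, 1710 and 1004 CPM. P1 Casp2-depleted replicates 1 to 4 gave 587, 206, 1207 and 2865 CPM. The genotypes overlapped at P1, and libraries of 1 group lay far apart.

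At P7, control replicates 1 to 4 gave 1399, 10493, 4455 and 3893 CPM for Ankrd1. P7 Casp2-depleted replicates gave 3592, 5138, 3848 and 3323 CPM. The Casp2-depleted libraries were close to each other and lay within the range of the controls, of which replicate 2 was the highest of the series and replicate 1 the lowest of that day. At P14, control replicates 1, 2 and 4 gave 192, 45.8 and 234 CPM. P14 Casp2-depleted replicates 2, 3 and 4 gave 130, 21.4 and 55.1 CPM. Every P14 library lay below every P7 library, for which the lowest value was 1399 CPM.

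**Figure D1:**
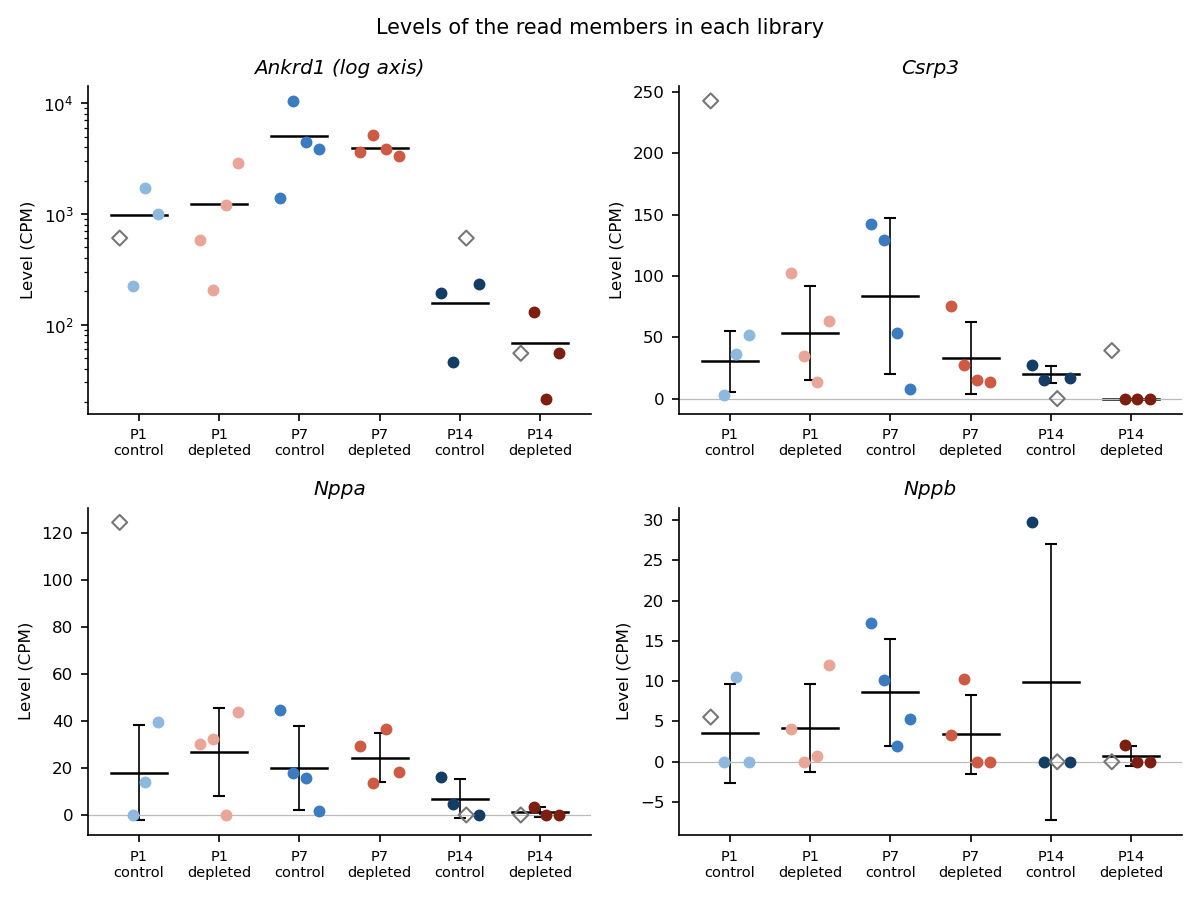
Level of Ankrd1, Csrp3, Nppa and Nppb in every library (y axis, CPM after TMM scaling, log axis for Ankrd1) by day and genotype (x axis). Filled points are kept libraries, open grey diamonds are the 3 left-out libraries, lines are means of the kept libraries and bars are ± SD (not drawn for Ankrd1). Ankrd1 was highest at P7 and lowest at P14 in both genotypes, and Csrp3 was at 0 in the 3 kept P14 Casp2-depleted libraries.

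Group means of Ankrd1 ran in the order P7 control (5060 ± 3858 CPM, SD, n = 4), P7 Casp2-depleted (3975 ± 804, n = 4), P1 Casp2-depleted (1216 ± 1174, n = 4), P1 control (979 ± 745, n = 3), P14 control (157 ± 98.7, n = 3) and P14 Casp2-depleted (68.7 ± 55.4, n = 3). Of the neighbours in this order, only P7 Casp2-depleted and P1 Casp2-depleted had ranges that did not overlap. That separation held for 1.48% of all tested genes within Casp2-depleted libraries, and the separation of every P14 from every P7 library held for 3.81% of them.

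Between P7 and P14, with the genotypes averaged, Ankrd1 fell by 5.43 on the log2 scale (SE 0.80, edgeR quasi-likelihood adjusted p = 0.000319). A gene was called when the adjusted p was below 0.05 and the log2 fold change exceeded 1 in size. This comparison called 8.92% of the 20368 tested genes, nearly all of them lower at P14, and the median of all genes was -0.87 on the log2 scale, so that Ankrd1 fell well beyond that general shift. Among the members, 2 of the 4 tested were called, Ankrd1 and Csrp3, both lower at P14. Within controls Ankrd1 fell by 5.01 (SE 1.11, adjusted p = 0.0282), in a comparison that called 1.88% of genes and 1 member. Within Casp2-depleted libraries it fell by 5.85 (SE 1.16, adjusted p = 0.00862), where 2.83% of genes and 2 members were called. With the replicate number, which the deposited tables name a batch, as a block, the averaged difference remained called and that within controls did not (-4.88, adjusted p = 0.0745). The control call was also lost without P7 control replicate 2 (-4.27, adjusted p = 0.0839). The same held without P14 control replicate 1, 2 or 4 (-5.18, -4.38 and -5.41, adjusted p = 0.0759, 0.0917 and 0.103). The call within Casp2-depleted libraries was lost without P14 Casp2-depleted replicate 3 or 4 (-5.23 and -5.54, adjusted p = 0.0644 and 0.0789). The averaged difference was called without any single library, at -5.85 to -5.02 and adjusted p from 8.36e-05 to 0.00299. limma-voom gave the same direction without a call (adjusted p = 0.727 with TMM and 0.474 with quantile normalization).

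The share of reads on no gene moved with Ankrd1 in the kept libraries, as all 6 at P14 had shares of 63.7% or more. The left-out P14 control replicate 3 had a share of 16.1% and 604 CPM of Ankrd1, below every P7 library as well. With that share added to the fit, Ankrd1 fell by 4.33 on the log2 scale with the genotypes averaged and remained called (adjusted p = 0.0189), while the values within controls (-3.84, adjusted p = 0.294) and within Casp2-depleted libraries (-4.81, adjusted p = 0.0681) were not. The ventricular CM markers also moved, since 7 of 10 were called lower at P14 than at P7 and their summed level was 46301 to 142953 CPM at P7 and 9321 to 40210 CPM at P14, so that the days did not overlap. Per 1000 reads on these 10 markers, Ankrd1 had 21.2 to 73.4 reads in P7 controls and 50.8 to 71.8 in P7 Casp2-depleted libraries. At P14 it had 4.76 to 12.6 in controls and 1.97 to 5.76 in Casp2-depleted libraries, below every P7 value. In bulk RNA, fewer nuclei of a type and less RNA per nucleus cannot be told apart.

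**Figure D2:**
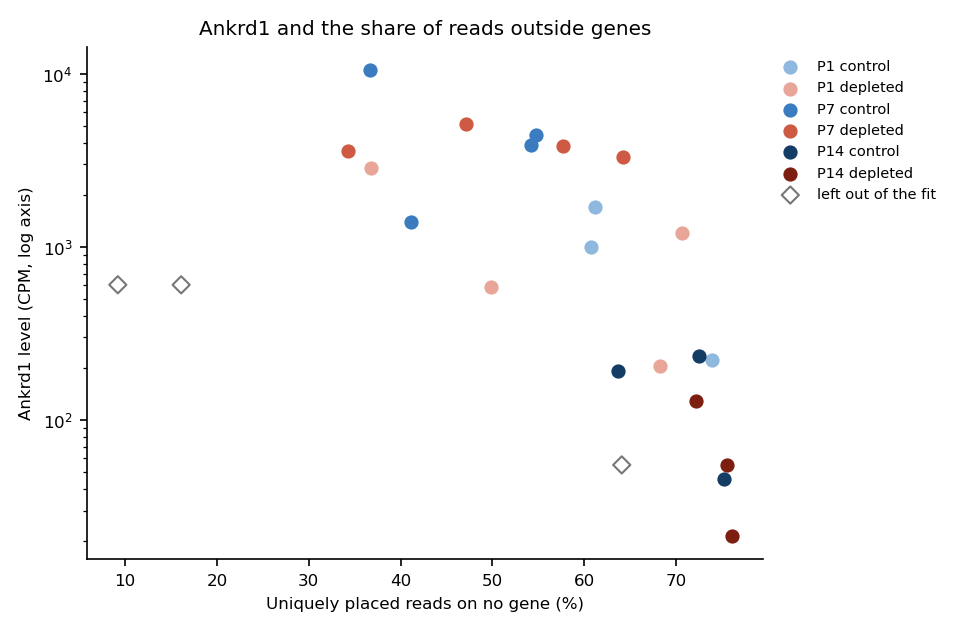
Ankrd1 level (y axis, CPM after TMM scaling, log axis) against the share of uniquely placed reads on no gene (x axis, %), by day and genotype. Filled points are kept libraries and open grey diamonds are the 3 left-out libraries. The kept P14 libraries sit at shares of 63.7% to 76.1% and at 21.4 to 234 CPM. The kept P1 libraries, at 36.8% to 73.9% and 206 to 2865 CPM, overlap them on both axes.

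Ankrd1 was higher at P7 than at P1 by 2.04 on the log2 scale with the genotypes averaged (SE 0.64, unadjusted p = 0.00634), which was not called (adjusted p = 0.341). Few genes were called between these days, 0.0933% with the genotypes averaged, 0.00982% in controls and 0.0196% in Casp2-depleted libraries. None of the 4 tested members was among them by edgeR, and 1, Ankrd1, had an unadjusted p below 0.05. This value depended on the test, as Ankrd1 was called by DESeq2 (adjusted p = 0.0126), by the default edgeR fit without robust estimation (2.64e-09), by the robust fit without the older (legacy) form (5.4e-07) and with all 24 libraries (0.0271), whereas limma-voom did not call it. P14 lay below P1 by 3.39 (SE 0.73, adjusted p = 0.0145) with the genotypes averaged, a comparison that called 4.24% of genes and 2 members. It was not called without P14 Casp2-depleted replicate 3 or 4 (adjusted p = 0.0519 and 0.0594) or with the replicate block (0.0619), under which Csrp3 alone was called. Nor was it called with the no-gene share as a term (0.0926) or by limma-voom (0.887 with TMM and 0.725 with quantile normalization).

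Between the genotypes Ankrd1 differed by 0.31 on the log2 scale at P1, by -0.35 at P7 and by -1.19 at P14 (SE 0.90, 0.83 and 0.97), where a negative value is lower in Casp2-depleted libraries. The adjusted p was 1 at P1 and P7 and 0.719 at P14. The sign at P1 and at P7 turned when single libraries were left out. At P14 the value ran from -2.04 to -0.72 without single libraries. No direction of a genotype difference in Ankrd1 was called on any day.

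**Figure D3:**
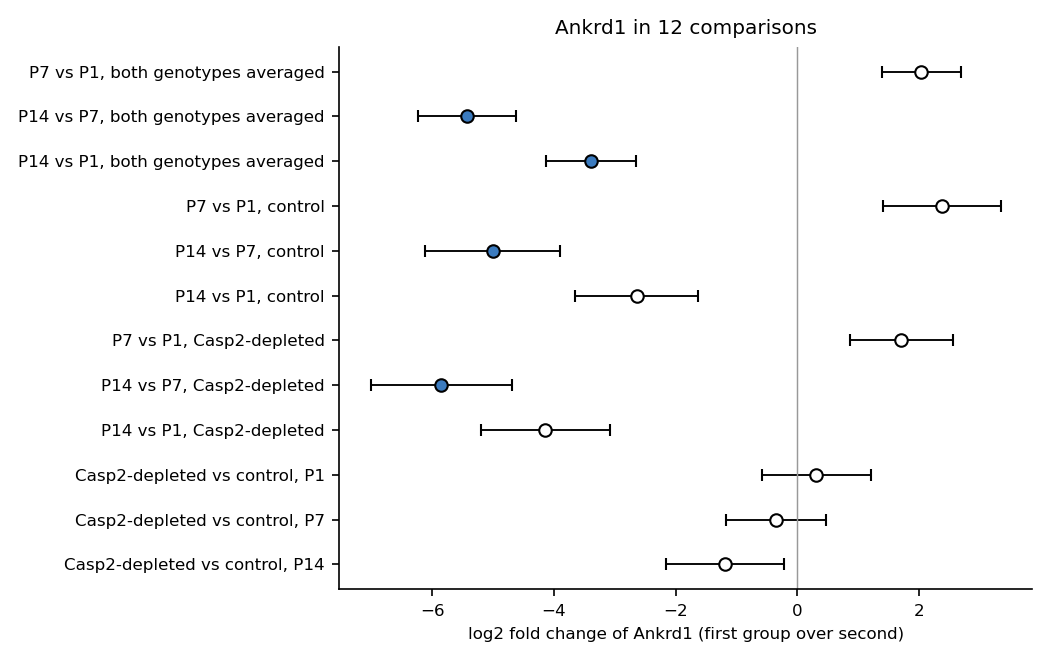
Log2 fold change of Ankrd1 (x axis, points, bars ± SE) in 12 comparisons between days and genotypes (y axis). Filled points were called, and these are P14 against P7 (averaged, control and Casp2-depleted) and P14 against P1 averaged, all below 0.

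Csrp3 was low, with reads in every kept library at P1 and P7, and was at 0 reads in all 3 kept P14 Casp2-depleted libraries. Csrp3 (ENSMUSG00000030470) lies on chr7:48480142-48497901, minus strand, and overlaps no other annotated gene. P1 control replicates 2, 3 and 4 gave 3.01, 36.6 and 51.6 CPM. P1 Casp2-depleted replicates 1 to 4 gave 102, 34.4, 13.5 and 63.5 CPM. P7 control replicates gave 142.7, 129.6, 53.7 and 8.25 CPM. These libraries overlapped widely, and no order of P1 and P7 was seen.

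P7 Casp2-depleted replicates 1 to 4 gave 75.7, 27.8, 15.1 and 13.4 CPM for Csrp3. P14 control replicates 1, 2 and 4 gave 27.6, 15.0 and 16.7 CPM, from 39, 20 and 22 reads. The P14 Casp2-depleted replicates 2, 3 and 4 had 0 reads each. Taken as 3 reads over the group, this is at least 57.2-fold lower than at P7 and at least 87.4-fold lower than at P1 in the same genotype. These bounds hold for the pooled reads of the kept libraries and cover counting error, not the spread between pools. P7 replicate 1 held 162 of the 238 P7 reads, and without it the bound was 27.7-fold. Without P14 replicate 2, 3 or 4 it was 39.3-fold, 37.2-fold and 38.0-fold against P7, and 60.1-fold, 56.8-fold and 58.0-fold against P1. The P14 controls lay within the range of the P7 controls, whereas each P14 Casp2-depleted library lay below each P7 Casp2-depleted library, as was so for 10.9% of tested genes, among them Ankrd1, Csrp3 and Nppa.

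In Casp2-depleted libraries the fall of Csrp3 was called from P7 to P14 (edgeR adjusted p = 0.00751) and from P1 to P14 (adjusted p = 0.00511), the latter a comparison that called 1.94% of genes and 1 member. In controls the pooled P7 level was 4.45 times that at P14 (95% counting interval 3.52 to 5.69), and the fitted difference of -2.08 on the log2 scale (SE 1.49) was not called (adjusted p = 0.452). P14 against P1 in controls called 0.319% of genes and 0 members by edgeR, with 1 member, Ankrd1, at an unadjusted p below 0.05 and 0 called by DESeq2 or limma-voom. The default edgeR fit and the robust fit without the legacy form each called 1 member there, Ankrd1. With the genotypes averaged, Csrp3 was called lower at P14 than at P7 (adjusted p = 0.00212) and than at P1 (0.0102). The P7 to P14 call within Casp2-depleted libraries was lost without P7 Casp2-depleted replicate 1 (0.0526) or P14 Casp2-depleted replicate 3 or 4 (0.0845 and 0.0805). The P1 to P14 call in that genotype was lost without P14 Casp2-depleted replicate 3 or 4 (0.0652 and 0.0626), and the averaged P1 to P14 call without P1 Casp2-depleted replicate 1 (0.0513) or P14 Casp2-depleted replicate 3 (0.0521).

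At P14, Csrp3 was at least 30.1-fold lower in Casp2-depleted than in control libraries over the group (at least 19.6-fold to 33.7-fold without single P14 libraries, the lowest without Casp2-depleted replicate 3), with an unadjusted p of 0.000383 and an adjusted p of 0.117, which was not called. The fold bounds again cover counting error only. This genotype difference was called by DESeq2 (adjusted p = 0.00064) and by limma-voom (0.0362 with TMM, 0.0343 with quantile normalization), and by edgeR without P14 control replicate 2 (0.0468). That edgeR fit called 166 of 20160 genes between genotypes at P14. The totals over all genes for DESeq2 and limma-voom at P14 are not given here, so how unusual their calls of Csrp3 are cannot be read from them. The left-out P14 Casp2-depleted replicate 1 held 79 Csrp3 reads and the left-out P14 control replicate 3 held 0, the opposite of the kept libraries, in libraries set aside for quality and with few detected genes. With all 24 libraries the genotype difference was -0.66 on the log2 scale (adjusted p = 1), the P7 to P14 difference in Casp2-depleted libraries -1.76 (0.643) and the averaged one -2.09 (0.213). From P1 to P14 the adjusted p was then 0.424 in Casp2-depleted libraries and 0.151 averaged. Once the no-gene share was added to the fit, no fall of Csrp3 was called (adjusted p = 0.511 and 0.271 from P7 to P14, averaged and in Casp2-depleted libraries, and 0.165 and 0.112 from P1 to P14). The robust fit without the legacy form did not call the P7 to P14 fall in Casp2-depleted libraries (0.0580) or the averaged one from P1 to P14 (0.0526), and limma-voom with quantile normalization did not call the latter (0.0578). The fall from P7 to P14 was not shown to differ between the genotypes (interaction adjusted p = 0.415), and that interaction called 0.0245% of genes and 0 members by edgeR, with 1 member, Csrp3, at an unadjusted p below 0.05 and 0 called by DESeq2 or limma-voom.

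Values of 0 are frequent at this depth. In the P14 Casp2-depleted libraries 25.3% of tested genes had 0 reads in all 3, and 0.319% had 0 there and reads in every P14 control. Of the 3615 genes within 1.5-fold of the P7 Casp2-depleted mean of Csrp3, 247 (6.83%) had 0 reads in the 3 kept P14 Casp2-depleted libraries and 15 (0.415%) also had reads in every P14 control. Csrp3 was 1 of these 15. Per 1000 reads on the ventricular CM markers, Csrp3 had 0.103 to 2.16 reads in P7 controls and 0.686 to 1.61 in P14 controls, which overlapped, and 0.201 to 1.07 in P7 Casp2-depleted libraries.

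Between genotypes 0% of genes were called at P1 and at P7 by edgeR, with 1496 and 860 genes at an unadjusted p below 0.05, and 0.167% at P14. At P14, 2613 genes (12.8%) had an unadjusted p below 0.05. DESeq2 called 105 and 25 genes at P1 and P7, and limma-voom with TMM 49 and 0. None of the 4 tested members was called by edgeR on any of the 3 days, with 0, 0 and 1 members at an unadjusted p below 0.05, and none by DESeq2 or limma-voom at P1 or P7. The interaction of genotype with the step from P1 to P7 called 0% of genes and no member by edgeR, with 1392 genes and 0 members at an unadjusted p below 0.05. DESeq2 called 66 genes there and limma-voom with TMM 4.

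The natriuretic peptide transcripts were scarce. Nppa (ENSMUSG00000041616) lies on chr4:148085091-148086583, plus strand, 2132 bp from Clcn6 and 13428 bp from Nppb, and overlaps the lncRNA gene Gm13054 on the other strand, which was read in a single library. It had 593 reads in the kept libraries, in 16 of the 21. P1 control replicates 2, 3 and 4 gave 0, 14.1 and 39.7 CPM, and P1 Casp2-depleted replicates 1 to 4 gave 30.2, 32.3, 0 and 44.0 CPM. P7 control replicates gave 44.4, 18.0, 15.7 and 1.5 CPM, and P7 Casp2-depleted replicates 29.4, 13.5, 36.5 and 18.3 CPM. The ranges of P1 and P7 overlapped in both genotypes.

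P14 control replicates 1, 2 and 4 gave 16.3, 4.50 and 0 CPM for Nppa, and P14 Casp2-depleted replicates 2, 3 and 4 gave 3.53, 0 and 0 CPM. The P14 Casp2-depleted libraries lay below all P7 Casp2-depleted libraries, while P14 and P7 controls overlapped. The pooled P7 level was 3.09 times the P14 level in controls (95% counting interval 2.06 to 4.79) and 22.9 times in Casp2-depleted libraries (9.63 to 71.6, from 159 and 5 reads). These intervals cover counting error and not the spread between pools. The control ratio was 1.68 without P7 control replicate 1 and 9.75 without P14 control replicate 1, and the Casp2-depleted ratio was 14.9 without P14 Casp2-depleted replicate 3 and 15.2 without replicate 4. Averaged over genotypes the fitted difference was -2.91 on the log2 scale (SE 1.58), which was not called (edgeR adjusted p = 0.214) and ran from -4.88 (without P14 Casp2-depleted replicate 2) to -2.45 (without P7 control replicate 1). Under the other settings this difference ran from -3.52 to -1.35, with adjusted p values of 0.0502 or more. At P14 the genotypes differed by -2.49 (SE 2.29, adjusted p = 0.765), with a range from -6.44 without P14 Casp2-depleted replicate 2 to -0.91 without P14 control replicate 1. None of these was called.

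Nppa is the classical atrial CM transcript, so the atrial markers were read beside it. Of the 11 listed, 10 had reads and Bmp10, which is confined to atria in the adult heart, had 0. Their summed level was 109.3 to 523.1 CPM in P14 controls and 190.7 to 568.3 CPM in P14 Casp2-depleted libraries, against 371.9 to 600.6 and 256.6 to 438.4 CPM at P7, and the days overlapped in both genotypes. The largest part of that sum in controls came from Fgf12, with a mean of 246.5 of 480.6 CPM at P7 and 239.4 of 362.1 CPM at P14. Myl7, Myl4, Sln, Stard10 and Kcna5 had 0 reads in the P14 controls, while Nr2f2 had a mean of 29.4 CPM in P7 controls and 51.8 CPM in P14 controls. In Casp2-depleted libraries Myl7 had means of 2.57 CPM at P7 and 13.03 CPM at P14, and Myl4 of 9.33 and 13.6 CPM. The median of the 8 tested atrial markers from P7 to P14 was -2.74 on the log2 scale in controls and 0.19 in Casp2-depleted libraries, beside -0.75 and -0.61 over all genes. With each gene that had a group at 0 reads set to its bound of 3 reads, among them Myl7, Myl4 and Stard10 in controls, the medians were -1.69 and 0.19, beside -0.51 and -0.40. Their part in the Nppa values was not tested. With the genotypes averaged, none of the 8 tested atrial markers was called from P7 to P14 by edgeR, beside 8.92% of all genes. At an unadjusted p below 0.05 was 1 of the 8, beside 28.1% of all genes.

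Nppb (ENSMUSG00000029019), on chr4:148069859-148071662, plus strand, was rarer still, with 170 reads in 12 of the 21 libraries. P1 control replicates 2, 3 and 4 gave 0, 10.6 and 0 CPM, and P1 Casp2-depleted replicates 4.02, 0, 0.677 and 11.99 CPM. P7 control replicates gave 17.25, 10.1, 1.964 and 5.25 CPM, and P7 Casp2-depleted replicates 3.27, 10.3, 0 and 0 CPM. P14 control replicate 1 had 29.7 CPM (42 reads) and replicates 2 and 4 had 0, while P14 Casp2-depleted replicate 2 had 2.12 CPM (3 reads) and replicates 3 and 4 had 0. All groups overlapped. The highest group mean, 9.90 CPM in P14 controls, came from that 1 library. The P14 to P7 difference was -0.98 on the log2 scale (SE 1.86, adjusted p = 0.836), with -4.45 without P14 control replicate 1 and -0.15 without P7 Casp2-depleted replicate 2. The genotype difference at P14 was -3.68 (SE 3.12, adjusted p = 0.716), which turned to 3.27 without P14 control replicate 1. No change in Nppb was detectable at this depth.

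Xirp1 (ENSMUSG00000079243, chr9:119842821-119852664, minus strand) had 0 reads in all 24 libraries and was not tested. Over the 33881992 reads of the kept libraries, 0 reads allow a level of up to 0.0885 CPM (without TMM scaling), taken as 3 reads. The mitochondrially encoded mt-Nd3, mt-Co2, mt-Co3 and mt-Atp6 were also at 0 in every group, while mt-Nd4 was read in each. A value of 0 in these counts therefore need not mean a low level. The Xirp1 paralogue Xirp2 was read in each group, with means of 115 and 126 CPM at P1, 330 and 192 CPM at P7 and 275 and 158 CPM at P14 (control first).

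The 4 detected members rose and fell together only in part. Across the 21 kept libraries, Pearson r of log2 CPM was 0.766 for Nppa and Csrp3, 0.649 for Ankrd1 and Csrp3, 0.545 for Nppa and Ankrd1, 0.512 for Nppb and Csrp3, 0.430 for Nppa and Nppb and 0.424 for Nppb and Ankrd1. The neighbouring natriuretic genes were thus not the closest pair. Libraries share day, depth and composition, so these values are descriptions. Among 10520 genes (10521 for Nppb) with a mean of at least 20 reads, those most like Ankrd1 were Ppp1r12a (r = 0.966), which encodes a subunit of myosin phosphatase, Srrt (0.963) and Lmo7 (0.961). Mean levels of Ppp1r12a were 918.9, 1866 and 332.1 CPM at P1, P7 and P14. Csrp3 was most like Cacnb2 (0.905), a calcium channel subunit gene, Nup214 (0.886) and Tmem161b (0.882). Nppa was most like 9130017K11Rik (0.892), Noct (0.883) and Adgrl1 (0.879), and Nppb like Ndufb10 (0.846), Mettl5 (0.838) and Kdm6b (0.828). With a minimum of 50 reads the first gene remained for Ankrd1 and Csrp3 and became Noct for Nppa, and the 3 for Nppb became Dmd (0.813), Pde4dip (0.768) and Rbm24 (0.768). For Nppa and Nppb, many libraries are at or near 0, and weak counts limit what such a ranking can show.

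The natriuretic peptide list holds Nppa, Nppb and Nppc with the genes that process, bind or degrade the peptides or act downstream of them. Of its 15 genes 13 were tested, and by edgeR 0 were called between P7 and P14 with the genotypes averaged, beside 8.92% of all genes called. At an unadjusted p below 0.05 were 2 of the 13, beside 28.1% of all genes. The median of the 13 genes was 0.10 on the log2 scale, beside -0.87 over all genes. DESeq2 called 0 of them lower and limma-voom with TMM 2. Corin, the protease that cuts the Nppa precursor, had 553.8 ± 104.3 and 464.3 ± 262.3 CPM at P7 (control and Casp2-depleted, SD, n = 4) and 845.2 ± 241.2 and 363.3 ± 160.0 CPM at P14 (n = 3), with a difference of 0.13 on the log2 scale (adjusted p = 0.913). Prkg1, the cGMP-dependent kinase downstream of the receptors, differed by -0.63 (adjusted p = 0.195). At P14 the genotypes differed by -1.22 in Corin (adjusted p = 0.382), and 0 of the 13 genes were called.

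Among genes of the Z-disc and of titin-linked stretch sensing, 18 were tested of 20 listed. From P7 to P14, 10 were called lower, Ankrd1 and Csrp3 among them, and none higher, beside 8.66% of all genes called lower. Their median was -2.69 on the log2 scale, or -2.50 with each gene that had a group at 0 reads set to its bound of 3 reads, beside -0.87 and -0.51 over all genes. Other lists moved in the same comparison. Called lower were 7 of 10 ventricular CM markers (median -2.22), 4 of 8 mitochondrially encoded genes (median -1.49) and 2 of 4 erythroid markers. Of the mural cell markers 1 of 6 was called lower (median -1.52, or -0.87 at the bounds). Their summed level had a mean of 450.8 CPM at P7 and 136.6 CPM at P14. The largest part of that sum at P7 came from Abcc9. It had means of 290.0 of 411.5 CPM in P7 controls and 359.9 of 490.0 CPM in P7 Casp2-depleted libraries. At P14 the means of Abcc9 were 72.1 CPM in controls and 50.2 CPM in Casp2-depleted libraries, so that the sum mainly follows this 1 gene. The part of these lists in the values of this and the following lists was not tested. The share of reads on no gene also differed, at 34.3% to 64.3% at P7 and 63.7% to 76.1% at P14, and its part in the list values is not given here. Synpo2l, an actin-associated Z-disc protein, had means of 40.1 and 15.4 CPM at P7 (control and Casp2-depleted) and 0 reads in each P14 library (adjusted p = 0.00226). Smpx, a small muscle protein of the costamere, had 70.7 and 84.8 CPM at P7 and 0 and 0.940 CPM at P14 (adjusted p = 1.99e-07). From P1 to P14, 8 were called lower and 1 higher, beside 4% and 0.241% of all genes, while limma-voom with TMM called 3 lower and edgeR with all 24 libraries 5. The gene called higher, Bag3, a co-chaperone that sustains turnover of Z-disc proteins and that was named after its value was seen, rose by 1.47 (adjusted p = 0.0406). Between genotypes at P14 edgeR called 1 gene of this list, Myoz2, the gene of a calcineurin-binding Z-disc protein (adjusted p = 0.0299), beside Csrp3, which DESeq2 and limma-voom called. The Myoz2 call rested on 1 library. Control replicate 1 had 132.2 CPM (187 reads), and the other P14 controls and all P14 Casp2-depleted libraries had 0. Without that library the adjusted p was 1, and it was 0.145 and 0.161 without Casp2-depleted replicate 3 or 4.

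**Figure D4:**
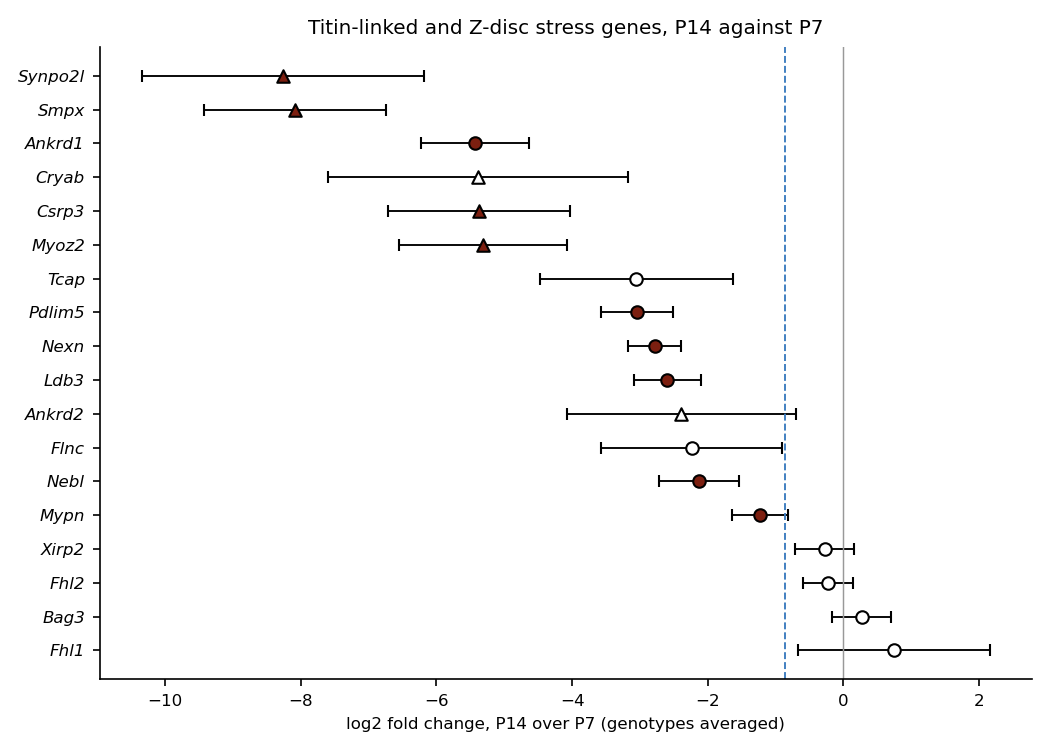
Log2 fold change from P7 to P14 with the genotypes averaged (x axis, points, bars ± SE) for the 18 tested Z-disc and titin-linked genes (y axis). Filled symbols were called, triangles mark genes with a P14 group at 0 reads, for which the fitted value is no bound, and the dashed blue line is the median of all tested genes, -0.87. Of the 18 genes, 10 were called, all of them lower at P14.

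The fetal gene program lists isoforms and other genes that hearts switch off after birth, Nppa and Nppb among them. From P7 to P14, 2 of 14 were called lower, beside 8.66% of all genes. DESeq2 called 1 and limma-voom with TMM 4. Tnni1, the slow skeletal troponin I of the fetal heart, went from 519.1 ± 142.3 and 646.3 ± 236.6 CPM at P7 (control and Casp2-depleted, SD, n = 4) to 0 and 15.8 ± 24.2 CPM at P14 (n = 3), with an adjusted p of 6.86e-50. Ncam1, a neural cell adhesion molecule, fell by 1.70 (adjusted p = 0.00676). From P1 to P14 Myh7, the slow β-myosin heavy chain, was called as well and fell by 2.44 (adjusted p = 0.0133), so that 3 of 14 were called lower, beside 4% of all genes, and limma-voom with TMM called 1. The median was -1.78 from P7 to P14, or -1.47 at the bounds. At P14 Tnni1 was the 1 gene of the program called between genotypes by edgeR, higher in Casp2-depleted libraries (adjusted p = 6.82e-11), and also in the interaction of genotype with the step from P7 to P14 (5.18e-07). The P14 controls had 0 reads of Tnni1, and Casp2-depleted replicates 2, 3 and 4 had 62, 5 and 1. Without replicate 2 neither was called (adjusted p = 0.127 and 0.271).

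Stress and growth response genes were mostly at low levels. Of 18 listed genes 13 were tested, and 2 were called lower at P14 than at P7, a share set beside the 8.66% of all genes called lower. DESeq2 called 2 and limma-voom with TMM 3. Jun, a subunit of AP-1, had 13.9 and 17.2 CPM at P7 and 0.250 and 0 CPM at P14 (control and Casp2-depleted, adjusted p = 0.0393), and Ccn2, a matricellular growth factor, had 32.6 and 34.2 CPM and then 4.71 and 0 CPM (adjusted p = 0.0240). Their median was -1.80 but -0.67 with genes at 0 set to their bounds, close to the -0.51 of all genes.

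Of the 19 tested transcription factors known to act on the members, 9 were called lower at P14 than at P7, beside 8.66% of all genes. Their median was -1.77, also at the bounds, against -2.22 for the ventricular CM markers. Gata6, a GATA factor of the heart, fell by 6.52 (SE 0.70, adjusted p = 1.22e-17), from 195.0 and 208.3 CPM to 9.04 and 0.470 CPM. Hand2, a basic helix-loop-helix factor of heart development, fell by 5.26 (SE 1.16, adjusted p = 0.000297). Rest, the repressor that binds Nppa and Nppb regulatory sequence, fell by 4.80 (SE 0.75, adjusted p = 5.65e-08) and Mef2a, a binder of the MEF2 box, fell by 3.45 (SE 0.50, adjusted p = 8.21e-10). All 4 were also called from P1 to P14, a step in which 7 of the 19 were called lower by edgeR, beside 4% of all genes, and 2 by limma-voom with TMM. Gata6 was in addition lower in Casp2-depleted than in control libraries at P14 (-4.10, SE 1.01, adjusted p = 0.0405), from 18, 4 and 15 reads in the controls and 2, 0 and 0 in the Casp2-depleted libraries. That call was lost without control replicate 1 (-3.776, adjusted p = 0.112) or Casp2-depleted replicate 3 or 4 (-3.519 and -3.545, adjusted p = 0.269 and 0.289). Between P1 and P7, by edgeR, none of the genes of these 5 lists was called. At an unadjusted p below 0.05 were 0 natriuretic, 5 Z-disc, 2 fetal, 1 stress and 2 regulator genes, of 13, 18, 14, 13 and 19 tested, beside 9.53% of all genes.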

How the data were processed

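Nuclear RNA of PCM1-sorted CM nuclei was sequenced by low-input QuantSeq 3′ libraries (FWD kit), 100 bp single-end. The authors deposited 1 table of raw counts per library (56923 Ensembl identifiers), which they made with FastQC 0.11.8, cutadapt 4.0, STAR 2.6.1e and HTSeq 2.0.3 on GRCm39 with Ensembl 108, counting over full genes, introns included. The strand setting of HTSeq and the use of molecular identifiers are not given in the sources used here. A member and its antisense neighbour were counted as separate genes, but how reads were divided between them is therefore not known. Lines naming no gene were left out of library sizes. GENCODE vM39 named 56236 identifiers, holding 99.5% of reads, and promoter sequence came from GRCm39.

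Counts were fitted with edgeR 4.0.16 (R 4.3.3): 21 libraries, 6 group means, TMM factors (0.574 to 1.56), genes with at least 10 reads and a read in 3 or more libraries (20368), quasi-likelihood F-tests and Benjamini-Hochberg adjustment. The biological coefficient of variation was 1.5 with 15 residual degrees of freedom. A gene was called at an adjusted p below 0.05 and a log2 fold change above 1 in size. SE was taken as the size of the log2 fold change over the square root of F. The design named the test without its options. The default fit was run first, and robust estimation was taken after the calls of both had been seen, because the default set an infinite prior and so ignored the spread of Ankrd1 itself, and because robust estimation gave the numbers of calls of an earlier processing of these data. Under robust estimation the prior degrees of freedom ran from 7.49e-17 to infinite over genes. The spread of Csrp3, Nppa and Nppb themselves was thus still ignored. The choice of robust estimation changes member calls. Over 6 option settings, 8 to 13 member calls were made in 14 comparisons, and the one used gave 8; the settings without the legacy form were run after robust estimation had been taken. Alternatives were DESeq2 1.42.0, limma 3.58.1, other filters and scalings, a replicate block, all 24 libraries and each library left out. The not robust and not legacy fits, a term for the no-gene share of reads and counts thinned to the smallest total (891817) were added after seeing the data, as was leaving out single libraries for list genes called between genotypes and for pooled folds.

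The members and gene lists were chosen with earlier results of these data known. Named genes were the members, up to 4 called genes of each list by size of change (otherwise the 2 with the highest mean), and the 3 genes most correlated with each member. The motifs were chosen while planning. The titles call the number of a library a replicate and the names of the deposited tables call it a batch, which was taken as the pairing. Between the genotypes, libraries with equal numbers deviated from their group means with correlations of -0.059 to 0.185 over 9 pairs, 1 of them over 0.1. A level of 0 reads was given the bound of 3 reads over the group. Counting intervals (95%) and bounds cover counting error only. The scripts were tested on simulated data.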

Additional observations from a re-analysis of the deposited data

Results flagged for a closer look

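The libraries that the study set aside held member reads outside the range of the kept libraries of their groups. These values are CPM without TMM scaling. Nppa had 122 CPM (404 reads) in P1 control replicate 1, against 0 to 38.5 CPM in the kept P1 controls. Csrp3 had 238 CPM (788 reads) in the same library, against 4.02 to 49.98 CPM, and reads of mitochondrially encoded genes there summed to 18785 CPM, against 1391 to 4006 CPM. The paper left this library out because gene clusters high in it, with mitochondrial, ribosomal and translation gene sets, pointed to cytoplasmic contamination. The part of this in its Nppa and Csrp3 values was not tested. Ankrd1 had 557.8 CPM in P14 control replicate 3, against 59.4 to 345.4 CPM, while Csrp3 had 0 reads. Csrp3 had 54.82 CPM (79 reads) in P14 Casp2-depleted replicate 1, against 0 in the kept libraries of that group.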

How the results depend on the processing

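The fall of Ankrd1 from P7 to P14 averaged over genotypes was called under each alternative other than limma-voom, and kept its direction under all. Over all genes, P14 against P7 averaged called 1817 in the main fit. The default fit that was not robust called 1668 there, and the robust fit without the legacy form 2140. Such totals are not given for every alternative, so the member counts below are descriptions. Members called moved as follows, counts being out of 4 tested. DESeq2 called 1 from P1 to P7 averaged (Ankrd1), 2 from P1 to P14 in Casp2-depleted libraries and 1 between genotypes at P14 (Csrp3). limma-voom with TMM called 1 for P14 against P7 averaged, 1 for P14 against P1 averaged, 0 for P14 against P7 in controls, 1 in Casp2-depleted libraries and 1 between genotypes at P14, all Csrp3, and with quantile normalization 1, 0, 0, 1 and 1. All 24 libraries gave 1 (Ankrd1) for each averaged comparison of days and for P14 against P7 in Casp2-depleted libraries. The default fit that was not robust called 1 (Ankrd1) for P7 against P1 averaged, in controls and in Casp2-depleted libraries, 1 for P14 against P1 in controls and 2 in Casp2-depleted libraries. The robust fit without the legacy form called 1 for P7 against P1 averaged and in controls, 1 for P14 against P1 averaged and in controls, 2 in Casp2-depleted libraries and 1 for P14 against P7 in Casp2-depleted libraries. A term for the no-gene share of reads left 1 (Ankrd1) for P14 against P7 averaged and 0 for P14 against P7 in controls and in Casp2-depleted libraries and for P14 against P1 averaged and in Casp2-depleted libraries. The replicate block left 1 for P14 against P1 averaged (Csrp3) and 0 for P14 against P7 in controls, and changed no other call of a member. Leaving out 1 library gave 2 to 2 members for P14 against P7 averaged, 0 to 2 for P14 against P1 averaged and for both Casp2-depleted comparisons with P14, 0 to 1 for P14 against P7 in controls and 0 to 1 between genotypes at P14. The fits with 0 members called 483 genes of all tested for P14 against P1 averaged and 176 to 502 for P14 against P7 in controls. In Casp2-depleted libraries they called 258 and 318 for P14 against P7 and 175 and 208 for P14 against P1. The fit with 1 member between genotypes called 166 genes.

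Directions turned as follows. Ankrd1 between genotypes at P7 was 0.66 with limma-voom and TMM, and at P1 -0.18 with the no-gene share as a term. With that term Nppb from P7 to P14 was 3.56 and Csrp3 in controls 0.39. The Csrp3 interaction was 0.65 with all 24 libraries. Without single libraries the genotype difference of Ankrd1 ran from -0.51 to 0.99 at P1 and from -0.64 to 0.30 at P7, and that of Nppb at P14 from -6.95 to 3.27. The causes were not tested. The median of all genes from P7 to P14 was -0.87, but -0.60 with RLE factors, -0.52 with a stricter filter, -0.54 with DESeq2, -0.99 with limma-voom and TMM and -0.09 with quantile normalization. Leaving out replicate 2 of the P14 controls moved it to -1.48 and replicate 2 of the P14 Casp2-depleted libraries to -1.30, and it was -1.05 to -0.63 without any other single library. Low read numbers limit Nppa, Nppb and Csrp3. Taken as 3 reads, 0 reads in a kept library correspond to 1.03 to 3.36 CPM (without TMM scaling). This bound covers counting error and not the spread between pools, which can be larger. In P14 controls, for example, Nppb had 42 reads in replicate 1 and 0 in replicates 2 and 4.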
